A study of Mus musculus with 12 samples.

Results

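The small leucine-rich proteoglycans (SLRPs) are secreted proteins of the extracellular matrix, built around repeats rich in leucine and often carrying sulfated sugar chains. 7 SLRP genes were followed in C22 cells, namely Bgn (biglycan), Dcn (decorin), Aspn (asporin), Lum (lumican), Fmod (fibromodulin), Ogn (osteoglycin) and Prelp. They were chosen by symbol from the 23282 gene rows of the count files, with earlier results of these data known. C22 is a conditionally immortalized mouse line that the authors describe as club cells, studied here in culture rather than in an airway. It carries a temperature-sensitive SV40 large T antigen from H-2Kb-tsA58 mice, so that all 4 groups share this transgene. Its club cell markers are given below, and 7 of 9 had at most 3 counts in every library. Each of the 4 groups had 3 libraries. Cells received a negative control siRNA (NC) or an siRNA against Pdcd5 (siPdcd5), and each kind was left untreated or was exposed over 24 h to TGF-β1 at 20 ng/ml, giving NC + TGF-β1 and siPdcd5 + TGF-β1. The question of the design was how TGF-β1 and the loss of PDCD5, a protein first described in programmed cell death, change gene expression in these cells.

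SLRPs bind collagen fibrils and set their diameter and spacing, and several of them also bind TGF-β itself or cell surface receptors. Decorin, biglycan and asporin form class I of the family. Decorin and biglycan carry chondroitin or dermatan sulfate chains and bind TGF-β, and free biglycan can act as a ligand of Toll-like receptors. Asporin, which has a stretch of aspartate residues, also binds TGF-β1. Fibromodulin, lumican and PRELP form class II, in which fibromodulin and lumican carry keratan sulfate, and osteoglycin, also called mimecan, belongs to class III. In lung fibrosis this group is known as part of the matrix that myofibroblasts and fibroblasts lay down.

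The SLRP genes lie in clusters, and in these cells members of one cluster moved in opposite directions, so the promoters of those members are shown together with that of Bgn. In GRCm38 (GENCODE M21), Aspn (chr13:49544443-49567565) and Ogn (chr13:49608046-49624501) are on the same strand with 40.5 kb between them, and Omd, another SLRP gene, lies in that interval. Prelp (chr1:133910304-133921414, minus strand) and Fmod (chr1:134037254-134048277, plus strand) have 116 kb between them. Dcn (chr10:97479609-97518143) is followed on the same strand by Lum (chr10:97565128-97572703), and Bgn (chrX:73483602-73495933) lies apart from the others. The RefSeq promoter table of GRCm38.p6 held 5 of the 7 members, and the 250 bases before each start are given 5′ to 3′, with capitals for the SMAD3 and SMAD4 core motif CAGAC, which reads GTCTG on the other strand.
Aspn, chr13:49544193-49544442, plus strand: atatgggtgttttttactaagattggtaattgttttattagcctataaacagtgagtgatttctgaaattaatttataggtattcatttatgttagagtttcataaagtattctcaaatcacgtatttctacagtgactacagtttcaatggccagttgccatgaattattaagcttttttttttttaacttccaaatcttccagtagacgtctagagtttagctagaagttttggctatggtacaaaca
Ogn, chr13:49607765-49608014, plus strand: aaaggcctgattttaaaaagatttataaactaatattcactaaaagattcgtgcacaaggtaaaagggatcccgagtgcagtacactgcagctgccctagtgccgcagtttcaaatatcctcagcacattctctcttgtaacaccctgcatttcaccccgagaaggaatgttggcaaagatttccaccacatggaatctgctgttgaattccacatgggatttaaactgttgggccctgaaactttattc
Prelp, chr1:133921402-133921651, minus strand: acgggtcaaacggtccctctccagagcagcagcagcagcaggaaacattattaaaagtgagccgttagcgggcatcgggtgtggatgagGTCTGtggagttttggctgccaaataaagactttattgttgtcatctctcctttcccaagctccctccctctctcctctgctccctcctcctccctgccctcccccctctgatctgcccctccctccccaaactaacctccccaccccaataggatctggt
Fmod, chr1:134037004-134037253, plus strand: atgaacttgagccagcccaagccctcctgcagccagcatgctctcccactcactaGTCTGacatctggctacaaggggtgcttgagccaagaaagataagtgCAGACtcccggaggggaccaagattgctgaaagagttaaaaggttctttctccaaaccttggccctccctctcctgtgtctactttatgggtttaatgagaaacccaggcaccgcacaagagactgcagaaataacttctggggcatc
Bgn, chrX:73483351-73483600, plus strand: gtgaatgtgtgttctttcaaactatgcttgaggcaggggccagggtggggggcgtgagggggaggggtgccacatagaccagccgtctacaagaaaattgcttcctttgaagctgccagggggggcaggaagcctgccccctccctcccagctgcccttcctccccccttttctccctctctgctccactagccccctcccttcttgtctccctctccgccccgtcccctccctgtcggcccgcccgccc
The motif was found 2 times in Fmod and 1 time in Prelp, and 42.2% of all 32851 promoter windows of this length held it. It had 0 matches in Aspn, Ogn and Bgn. Other motifs were searched on both strands in the same way. GGGCGG, the GC box, was found 3 times in Bgn, where 2 of the matches overlap, and 32.7% of all windows held it. GGAATG, the TEAD motif, was found 1 time in Ogn and in 12.6% of all windows. TATAAA was found 2 times each in Aspn and Ogn, where the 2 matches in Ogn overlap on opposite strands, and in 12.4% of all windows. TGANTCA, the AP-1 motif, was found in no member's window and in 6.75% of all windows. The GC content of the windows was 30% in Aspn, 42% in Ogn, 51.2% in Fmod, 55.6% in Prelp and 64.4% in Bgn, beside a median of 52.4% over all windows. These matches describe the letters of the windows only, and no binding was measured.

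The libraries were made by the QuantSeq 3′ method, in which a read comes from the 3′ end of a polyadenylated transcript, and the authors deposited whole read counts per gene. Total counts ran from 12809857 to 17714828 per library. Levels are given as CPM, the counts scaled to library size, with library sizes adjusted by trimmed mean of M-values (TMM) factors, and 3 counts, the smallest level taken as measurable in a library, correspond to 0.165 to 0.239 CPM. Changes are log2 fold changes from edgeR's quasi-likelihood test over 12425 genes that passed its filter on low counts, with Benjamini-Hochberg adjustment over all of them, and a gene was called at an adjusted p under 0.05. Pdcd5 itself fell after knockdown, from 68.1 ± 4.68 to 21.1 ± 1.07 CPM without TGF-β1 and from 67.8 ± 1.69 to 24.1 ± 2.3 CPM with it (SD, n = 3), with no overlap between the groups. Of 9 club cell markers, 7 had at most 3 counts in every library, among them Scgb1a1, which had 1 count in all, and Scgb3a2 and Cyp2f2, which had none, whereas Aldh1a1 ranged from 155 to 556 CPM. The epithelial marker Epcam had 1 count in all while Krt8 had at least 171 CPM in every library. Of 14 fibroblast markers, Tcf21 and Meox2 had 0 counts, whereas Col1a1 lay between 1695 and 6542 CPM. The summed level of the fibroblast markers was 11850 to 11890 CPM in NC, 13380 to 13970 in NC + TGF-β1, 8330 to 8998 in siPdcd5 and 10330 to 10710 in siPdcd5 + TGF-β1. Its members did not move together. After TGF-β1 in NC cells edgeR called 4 of the 9 tested markers higher, beside 8.57% of all tested genes. These were Col1a2 (2.78), Col1a1 (1.17), Pdgfrb (0.98) and Col3a1 (0.52). S100a4 (−0.36) and Vim (−0.61) were the 2 called lower, beside 6.77%, and the list median was −0.26. After knockdown without TGF-β1, edgeR called S100a4 (−0.69), Col3a1 (−0.52) and Col1a1 (−0.47) lower, beside 2.54% of all tested genes. It called Col1a2 (1.74) higher, beside 0.901%. The other tested genes of the list were not called, and its median was −0.088. The summed level of the 10 epithelial markers was 676 to 700 CPM in NC and 1243 to 1679 in NC + TGF-β1. It was 550 to 701 CPM in siPdcd5 and 1586 to 1648 in siPdcd5 + TGF-β1. Nearly all of this sum was Krt8 and Krt18, which were called higher after TGF-β1 in both kinds of cells. Of the 10 markers 4 were tested, and in NC cells Cdh1 (−0.58, edgeR adjusted p = 0.167) and Krt7 (−0.056, edgeR adjusted p = 0.933) were not called. The sum of the club cell markers, nearly all of it Aldh1a1, was 547 to 556 CPM in NC, 231 to 245 in NC + TGF-β1, 293 to 326 in siPdcd5 and 155 to 165 in siPdcd5 + TGF-β1. The part of these differences in the SLRP results was not tested, and in bulk RNA fewer cells of a type and less RNA per cell cannot be told apart. Replicates differed most in NC + TGF-β1 and siPdcd5, where pairs with NC + TGF-β1 replicate 2 or siPdcd5 replicate 1 gave a chi-square per gene of 25.4 to 59.0, against 4.29 to 11.5 in all other pairs, so results are also given without these libraries where that changes a call. The labels do not say whether the libraries came from separate cultures, so p-values measure the spread between these libraries, which may be technical.

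6 of the 7 members passed the filter. Lum was near zero, with 1 count in NC + TGF-β1 replicate 2 and 0 in the other 11 libraries, so that it was below the limit of 3 counts everywhere and had no test in the fit. An exact two-sided permutation test gave p = 1 for Lum in each of the 4 comparisons, where the smallest p that 3 against 3 libraries allow is 0.1. Its neighbours Kera and Epyc, which follow it on chromosome 10 and encode keratocan and epiphycan, had 0 counts in every library, while Dcn, at the start of the same cluster, had 274 counts or more.

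TGF-β1 divided the 6 measured members. In NC cells 2 of them rose, beside 8.57% of all tested genes, and 3 fell, beside 6.77%. In siPdcd5 cells 2 rose, beside 8.5%, and 3 fell, beside 7.61%. The median log2 fold change of the tested members was 0.04 in NC and 0.12 in siPdcd5 cells, against 0.0050 and −0.026 over all tested genes. Bgn rose and Dcn, Ogn and Prelp fell in both kinds of cells, Aspn was called in NC cells, and Fmod was called in siPdcd5 cells. After knockdown without TGF-β1, 1 member rose, beside 0.901% of tested genes, and 3 fell, beside 2.54%. After knockdown with TGF-β1, 1 rose, beside 0.33%, and 2 fell, beside 1.22%.

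**Figure D1:**
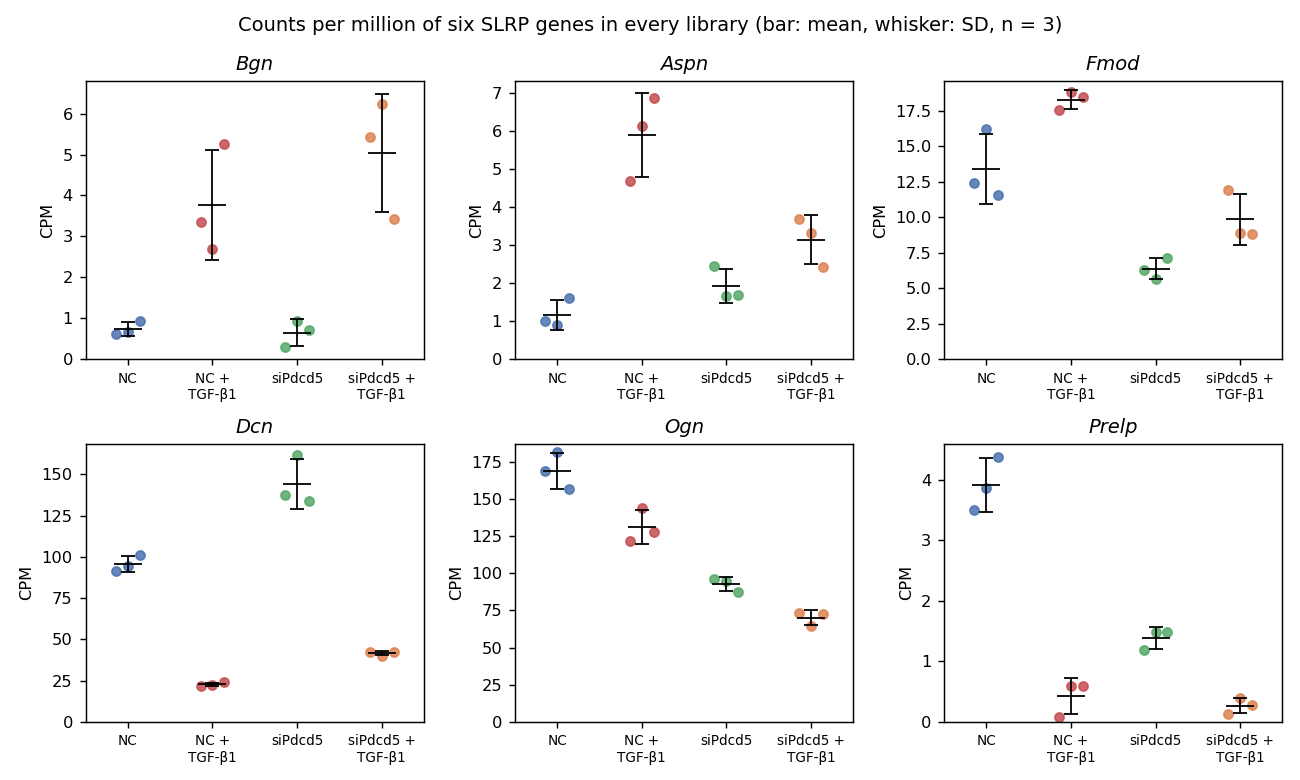
CPM (vertical axes, from 0, a different scale for each gene) of 6 SLRP genes in the 12 libraries, by group. Points are libraries, and bars and whiskers are the mean and SD of 3. Bgn and Aspn are highest in NC + TGF-β1 or siPdcd5 + TGF-β1, Dcn is lowest in both TGF-β1 groups, Ogn steps down over the 4 groups in the order shown, and Fmod is lowest in siPdcd5.

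Decorin, the best known TGF-β-binding member, fell after TGF-β1 and rose after knockdown. Dcn had 1206, 1271 and 1319 counts in NC, 274, 296 and 327 in NC + TGF-β1, 1859, 2931 and 2081 in siPdcd5, and 628, 520 and 628 in siPdcd5 + TGF-β1. No group overlapped another, and both TGF-β1 groups lay below both untreated groups. The means were 95.7 ± 4.95, 22.6 ± 1.13, 144 ± 15.1 and 41.5 ± 1.19 CPM in the same order (SD, n = 3). TGF-β1 lowered Dcn 4.23-fold in NC cells, a log2 fold change of −2.08 (SE 0.099, edgeR adjusted p = 6.47e-09), and 3.48-fold in siPdcd5 cells, at −1.80 (SE 0.095, edgeR adjusted p = 1.92e-08). Knockdown raised it 1.51-fold without TGF-β1 (log2 fold change 0.59, SE 0.092, edgeR adjusted p = 0.00234) and 1.83-fold with TGF-β1 (0.88, SE 0.098, edgeR adjusted p = 0.000544). The TGF-β1 response was 0.28 smaller on the log2 scale in siPdcd5 cells, with a 95% confidence interval of the difference from −0.0032 to 0.57, and this difference did not pass the test (edgeR adjusted p = 0.951). These calls were kept under every alternative run, with log2 fold changes for TGF-β1 in NC cells from −2.12 to −2.05.

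Biglycan, the closest relative of decorin in class I, went the other way after TGF-β1. Bgn had 8, 9 and 12 counts in NC, 42, 36 and 72 in NC + TGF-β1, 4, 17 and 11 in siPdcd5, and 81, 81 and 51 in siPdcd5 + TGF-β1. The TGF-β1 libraries were all above the untreated ones, while the NC and siPdcd5 libraries overlapped. The means were 0.732 ± 0.166, 3.77 ± 1.34, 0.647 ± 0.325 and 5.04 ± 1.45 CPM (SD, n = 3), of which the untreated ones are close to the level of 3 counts. TGF-β1 raised Bgn 5.11-fold in NC cells (log2 fold change 2.35, SE 0.40, edgeR adjusted p = 0.00087) and 7.44-fold in siPdcd5 cells (2.90, SE 0.39, edgeR adjusted p = 0.000113). Knockdown gave log2 fold changes of −0.13 (95% confidence interval −1.17 to 0.91, edgeR adjusted p = 0.935) without and 0.41 (−0.28 to 1.11, edgeR adjusted p = 0.634) with TGF-β1. Changes of the sizes within those intervals are not excluded at these counts.

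Asporin rose after TGF-β1 in NC cells and had the largest fitted difference of response among the 6 tested members. Aspn had 13, 12 and 21 counts in NC, 59, 82 and 94 in NC + TGF-β1, 33, 30 and 26 in siPdcd5, and 55, 43 and 36 in siPdcd5 + TGF-β1. The NC + TGF-β1 libraries lay above all others, and the siPdcd5 and siPdcd5 + TGF-β1 libraries overlapped in CPM. The means were 1.16 ± 0.392, 5.90 ± 1.11, 1.92 ± 0.446 and 3.14 ± 0.653 CPM (SD, n = 3). TGF-β1 raised Aspn 5.06-fold in NC cells (log2 fold change 2.34, SE 0.30, edgeR adjusted p = 6.28e-05). In siPdcd5 cells the log2 fold change was 0.72 (SE 0.28, edgeR adjusted p = 0.105) and did not pass. The difference between the responses was −1.62 (95% confidence interval −2.51 to −0.73), with an unadjusted p of 0.00154 in edgeR and an edgeR adjusted p of 0.736 over all genes, so it failed the correction. Knockdown gave 0.71 (SE 0.32, edgeR adjusted p = 0.303) without TGF-β1 and −0.91 (SE 0.26, edgeR adjusted p = 0.113) with TGF-β1, neither of which passed. In both comparisons the 3 libraries of one group lay on one side of the other 3, which 23.1% of tested genes did without TGF-β1 and 18.9% did with it. DESeq2 called the fall with TGF-β1 at an adjusted p of 0.0419, where the adjusted p over all alternatives ran up to 0.358.

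Fibromodulin, a keratan sulfate SLRP of class II that binds the same collagen fibrils as lumican, was lowered by knockdown. Fmod had 163, 219 and 151 counts in NC, 221, 252 and 253 in NC + TGF-β1, 85, 103 and 111 in siPdcd5, and 178, 115 and 131 in siPdcd5 + TGF-β1. All NC + TGF-β1 libraries were above all NC libraries in CPM, and the NC and siPdcd5 + TGF-β1 libraries overlapped. The means were 13.4 ± 2.49, 18.3 ± 0.641, 6.37 ± 0.738 and 9.87 ± 1.79 CPM (SD, n = 3). Knockdown lowered Fmod 2.11-fold without TGF-β1 (log2 fold change −1.08, SE 0.17, edgeR adjusted p = 0.00278) and 1.85-fold with TGF-β1 (−0.89, SE 0.17, edgeR adjusted p = 0.014). The call with TGF-β1 was lost in a fit of the 6 libraries alone (edgeR adjusted p = 0.0615) and without siPdcd5 + TGF-β1 replicate 2 or 3 (edgeR adjusted p = 0.0882 and 0.0905), over a range of adjusted p from 8.89e-05 to 0.0905 for all alternatives. TGF-β1 raised it 1.55-fold in siPdcd5 cells (0.64, SE 0.17, edgeR adjusted p = 0.0212). In NC cells TGF-β1 gave 0.45 (SE 0.16, edgeR adjusted p = 0.0828), which did not pass although the groups did not overlap, as was the case for 29.6% of tested genes. The response in siPdcd5 cells lost its call without siPdcd5 replicate 2 (edgeR adjusted p = 0.0826) or siPdcd5 + TGF-β1 replicate 1 (edgeR adjusted p = 0.121), over a range of adjusted p from 0.00569 to 0.121 for all alternatives. Without NC replicate 2 the response in NC cells gained one, at 0.61 (edgeR adjusted p = 0.0363, over a range to 0.281).

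PRELP, which binds both collagen and the heparan sulfate of basement membranes, was lowered most by TGF-β1 in fold. Prelp had 46, 52 and 57 counts in NC, 1, 8 and 8 in NC + TGF-β1, 16, 27 and 23 in siPdcd5, and 2, 5 and 4 in siPdcd5 + TGF-β1. Every untreated library was above every TGF-β1 library, and the TGF-β1 libraries were near the level of 3 counts in both kinds of cells. The means were 3.91 ± 0.441, 0.421 ± 0.296, 1.38 ± 0.175 and 0.263 ± 0.126 CPM (SD, n = 3). TGF-β1 lowered Prelp 8.99-fold in NC cells (log2 fold change −3.17, SE 0.43, edgeR adjusted p = 0.000109) and 5.23-fold in siPdcd5 cells (−2.39, SE 0.50, edgeR adjusted p = 0.0039). Knockdown lowered it 2.80-fold without TGF-β1 (−1.49, SE 0.36, edgeR adjusted p = 0.0337), but this call was lost when any 1 of the 6 libraries was left out, at log2 fold changes from −1.56 to −1.40 and edgeR adjusted p from 0.0893 to 0.146. With TGF-β1 knockdown gave −0.71 (95% confidence interval −2.00 to 0.59, edgeR adjusted p = 0.669). An antisense gene, Gm15851, overlaps the 3′ part of Prelp, and without strand in the counting, which the sources used here do not state, reads of both could not be told apart.

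Osteoglycin fell after both treatments. Ogn had 2222, 2447 and 2047 counts in NC, 1530, 1924 and 1747 in NC + TGF-β1, 1301, 1726 and 1353 in siPdcd5, and 1089, 836 and 1083 in siPdcd5 + TGF-β1. The means of 169 ± 12.2, 131 ± 11.4, 92.8 ± 4.92 and 70.1 ± 4.88 CPM (SD, n = 3) formed a descending order in which no group overlapped the next. Knockdown lowered Ogn 1.82-fold without TGF-β1 (log2 fold change −0.87, SE 0.095, edgeR adjusted p = 0.000172) and 1.87-fold with it (−0.90, SE 0.096, edgeR adjusted p = 0.000332). TGF-β1 lowered it 1.29-fold in NC cells (−0.37, SE 0.094, edgeR adjusted p = 0.0148) and 1.32-fold in siPdcd5 cells (−0.40, SE 0.096, edgeR adjusted p = 0.00919). The fall in NC cells lost its call without NC replicate 2, NC + TGF-β1 replicate 1 or NC + TGF-β1 replicate 3, and in a fit of the 6 libraries alone, with edgeR adjusted p from 0.0505 to 0.0804. The fall in siPdcd5 cells lost it without siPdcd5 + TGF-β1 replicate 2 (edgeR adjusted p = 0.0577, over a range from 0.00116 to 0.0577 for all alternatives).

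Ogn and Aspn, the neighbours on chromosome 13, were therefore called in opposite directions after TGF-β1 in NC cells. Omd (osteomodulin), which lies between them, had 54, 68 and 76 counts in NC and 36, 41 and 34 in NC + TGF-β1, with a log2 fold change of −0.83 (SE 0.28, edgeR adjusted p = 0.0617) that did not pass in edgeR. Ecm2, the last SLRP gene of that cluster, had 0.76 (SE 0.51, edgeR adjusted p = 0.376). All of these genes lie within Cenpp, a centromere protein gene on the opposite strand (chr13:49464023-49652785), so that Cenpp reads could enter their counts if strand was not used. Cenpp had 35 to 85 counts per library, and its log2 fold change was −0.19 (SE 0.27, edgeR adjusted p = 0.708) after TGF-β1 in NC cells and 0.15 (SE 0.26, edgeR adjusted p = 0.848) after knockdown without TGF-β1.

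**Figure D2:**
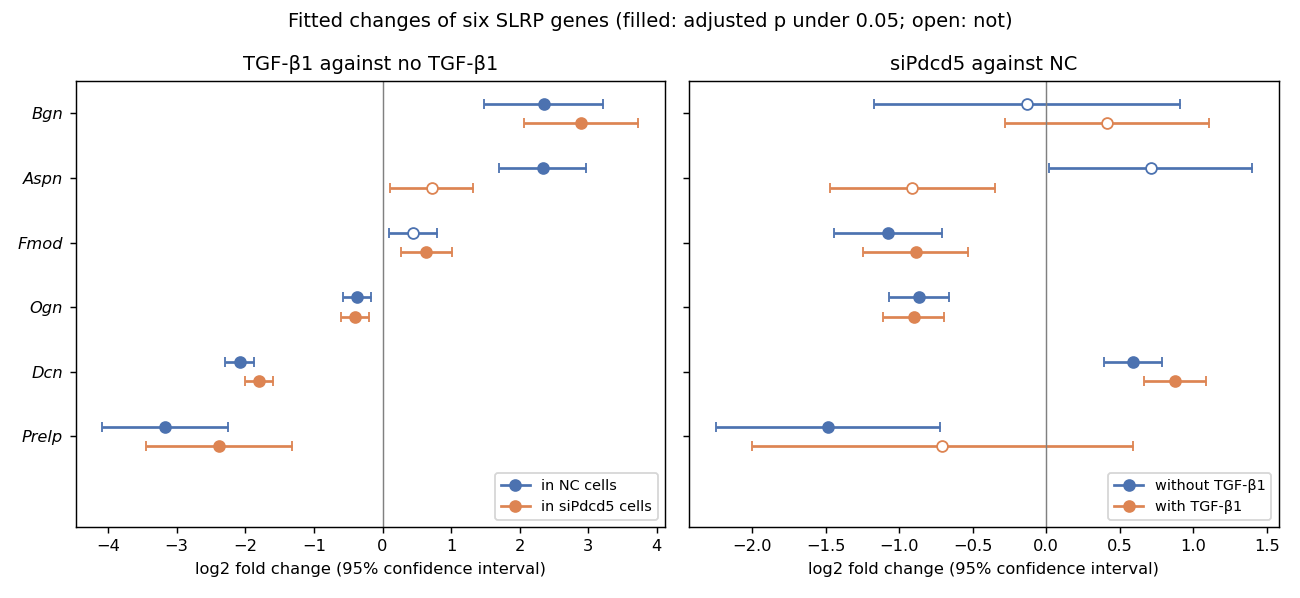
Fitted log2 fold changes (horizontal axes, different scales) of 6 SLRP genes with 95% confidence intervals. The left panel shows TGF-β1 against no TGF-β1 in NC cells (blue) and siPdcd5 cells (orange), and the right panel siPdcd5 against NC without (blue) and with (orange) TGF-β1. Filled points passed an adjusted p of 0.05. Bgn lies to the right and Dcn, Ogn and Prelp to the left of 0 in both TGF-β1 comparisons, and in the right panel Dcn is the member called higher.

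The difference between the TGF-β1 responses of siPdcd5 and NC cells was called for 0 of the 6 tested members in edgeR, beside 0% of all tested genes, and DESeq2 and limma-trend also called 0 members. At an unadjusted p under 0.05 edgeR gave 1 member, Aspn, beside 638 of the 12425 tested genes, a share of 5.13%. DESeq2 called 13 genes in all after adjustment. The confidence intervals of the difference were widest in Prelp (−0.80 to 2.36) and Bgn (−0.72 to 1.80), and they were −0.32 to 0.70 in Fmod and −0.32 to 0.25 in Ogn. A miss of the threshold does not show equal responses. No overlap between the groups, the other reading of the libraries, was found in 36.1% of tested genes for TGF-β1 in siPdcd5 cells, and there it held for Bgn, Dcn, Fmod, Ogn and Prelp.

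Of 11 other SLRP genes, 5 passed the filter and 4 had at most 3 counts in every library. Tsku (tsukushi) and Podnl1 (podocan-like) were called higher by edgeR after TGF-β1 in both kinds of cells, beside 8.57% and 8.5% of all tested genes. edgeR called 0 of the 5 lower, whereas DESeq2 called Omd lower in NC cells (−0.83, DESeq2 adjusted p = 0.0387). Tsku had 86, 71 and 64 counts in NC and 211, 205 and 255 in NC + TGF-β1, a log2 fold change of 1.60 (SE 0.15, edgeR adjusted p = 3.9e-06), and 1.19 (SE 0.15) in siPdcd5 cells. Podnl1 had 329, 288 and 317 counts in NC and 700, 432 and 936 in NC + TGF-β1, at 1.15 (SE 0.21, edgeR adjusted p = 0.00138), and 0.98 (SE 0.21) in siPdcd5 cells. The median of the 5 genes was 0.76 in NC cells and −0.15 in siPdcd5 cells. After knockdown 0 of 5 were called in edgeR, with 1 at an unadjusted p under 0.05 without TGF-β1 and 0 with it, and DESeq2 and limma-trend called 0.

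Of 23 genes for enzymes that build or modify the chondroitin and dermatan sulfate chains of these core proteins, 18 were tested. After TGF-β1 in NC cells 7 of the 18 rose, beside 8.57% of all tested genes, and 2 fell, beside 6.77%. In siPdcd5 cells 3 rose, beside 8.5%, and 2 fell, beside 7.61%. The medians were 0.32 and 0.18, against 0.0050 and −0.026 over all tested genes. Chsy1, a chondroitin sulfate synthase that extends the chain, had 311, 330 and 280 counts in NC and 943, 1050 and 1050 in NC + TGF-β1. Its log2 fold change was 1.73 (SE 0.095, edgeR adjusted p = 1.93e-08), and it was 1.32 in siPdcd5 cells. The sulfotransferases Chst7 and Ust rose by 0.92 and 0.83 in NC cells, and Chst11 rose by 0.83 in NC and 0.86 in siPdcd5 cells. Pxylp1, which removes a phosphate from the linker, fell by 0.52 in NC cells and fell by 0.73 in siPdcd5 cells. The other gene called lower was Csgalnact1, at −0.57 in NC and −0.48 in siPdcd5 cells. Knockdown without TGF-β1 raised 1 of the 18, Chsy1 (0.37, edgeR adjusted p = 0.0477), beside 0.901% of all tested genes. It lowered 1, Csgalnact1 (−0.62, edgeR adjusted p = 0.0308), which adds the first N-acetylgalactosamine, beside 2.54%. In that comparison DESeq2 called 2 genes of the list, beside 714 over all tested genes, and limma-trend called 1, beside 431. With TGF-β1, knockdown gave 0 calls in edgeR, beside 192 over all tested genes, 0 in limma-trend, beside 161, and 1 in DESeq2, beside 458. At an unadjusted p under 0.05 edgeR gave 4. For knockdown, the share of all tested genes at that cut-off was not computed, here or for the other lists. For keratan sulfate, the chain of fibromodulin, 5 of 9 genes were tested. B4galt1, a galactosyltransferase, was the one called after TGF-β1, at 0.66 in NC and in siPdcd5 cells. The shares of all tested genes called higher were 8.57% and 8.5%. After knockdown 0 of the 5 were called by any of the 3 tools, with 1 at an unadjusted p under 0.05 in edgeR in each comparison.

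Receptors and proteases of SLRPs moved in both directions. Of 11 receptor genes 10 were tested. After TGF-β1 in NC cells 2 of them rose, beside 8.57% of all tested genes, and 3 fell, beside 6.77%, while in siPdcd5 cells 1 rose, beside 8.5%, and 3 fell, beside 7.61%. Tlr2, a Toll-like receptor that binds free biglycan, had 26, 32 and 28 counts in NC, 49, 82 and 66 in NC + TGF-β1, 11, 12 and 13 in siPdcd5, and 39, 47 and 60 in siPdcd5 + TGF-β1. TGF-β1 raised it by 1.19 in NC cells and 2.15 in siPdcd5 cells on the log2 scale, and knockdown without TGF-β1 lowered it (−1.49, SE 0.30, edgeR adjusted p = 0.0134). Tlr4 fell after TGF-β1 by 0.63 and 0.66, and Met, a receptor that binds decorin, fell by 1.14 and 1.18. Egfr, another decorin receptor, was also called lower after TGF-β1, at −0.45 in NC and −0.38 in siPdcd5 cells. After knockdown Egfr fell by 0.57 without and 0.51 with TGF-β1, and Igf1r fell by 0.45 and 0.39. The call of Igf1r with TGF-β1 (edgeR adjusted p = 0.0492) was lost in limma-trend (limma adjusted p = 0.0918). Of 11 protease genes 8 were tested, with 4 higher and 3 lower after TGF-β1 in each kind of cells, beside the same shares of all tested genes. Adamts4, an aggrecanase, rose by 3.13 in NC cells and 2.06 in siPdcd5 cells. The matrix metalloproteinases Mmp3 (log2 fold change −2.53 in NC and −2.12 in siPdcd5 cells) and Mmp13 (−1.44 and −1.25) were called lower in both, as was Adamts5 (−1.40 and −0.66). Adamts5, another aggrecanase, had 4144, 4448 and 4285 counts in NC and 1333, 2517 and 1842 in siPdcd5, and was lowered by knockdown without (−1.45, SE 0.13, edgeR adjusted p = 2.12e-05) and with TGF-β1 (−0.72, SE 0.13, edgeR adjusted p = 0.00925). Mmp14, a membrane-bound metalloproteinase, was the other protease called after knockdown with TGF-β1 (−0.40, SE 0.089, edgeR adjusted p = 0.0428), and limma-trend did not call it (limma adjusted p = 0.124).

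The fibrillar collagens, to which SLRPs bind, rose together after TGF-β1, whereas SLRPs were called in both directions. Of 9 genes 8 were tested. In NC cells 7 rose, beside 8.57% of all tested genes, and 0 fell, beside 6.77%. In siPdcd5 cells 7 rose, beside 8.5%, and 0 fell, beside 7.61%. The medians were 1.36 in both, against 0.0050 and −0.026 over all tested genes. Col2a1 did not pass, at 0.24 (SE 0.68, edgeR adjusted p = 0.869) in NC cells. Col1a2 had 48, 47 and 47 counts in NC, 251, 440 and 289 in NC + TGF-β1, 204, 205 and 152 in siPdcd5, and 572, 479 and 640 in siPdcd5 + TGF-β1. TGF-β1 raised Col1a2 by 2.78 (SE 0.22, edgeR adjusted p = 6.15e-07) in NC cells. Knockdown without TGF-β1 raised Col1a2 by 1.74 (SE 0.22, edgeR adjusted p = 0.000633). It was the 1 collagen called higher in that comparison, beside 0.901% of all tested genes, and 4 were called lower, beside 2.54%. Col5a3, a chain of collagen V, rose by 1.77 in NC cells. Col11a1, a chain of collagen XI, had 5, 9 and 6 counts in NC, 53, 31 and 47 in NC + TGF-β1, 0, 0 and 1 in siPdcd5, and 21, 22 and 33 in siPdcd5 + TGF-β1. Col5a2 fell after knockdown by 0.82 both without and with TGF-β1, and Col1a1 fell by 0.43 with it, a call (edgeR adjusted p = 0.0455) that was lost in limma-trend (limma adjusted p = 0.073). Col1a1, Col1a2 and Col3a1 also stand among the fibroblast markers whose sums are given above.

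**Figure D3:**
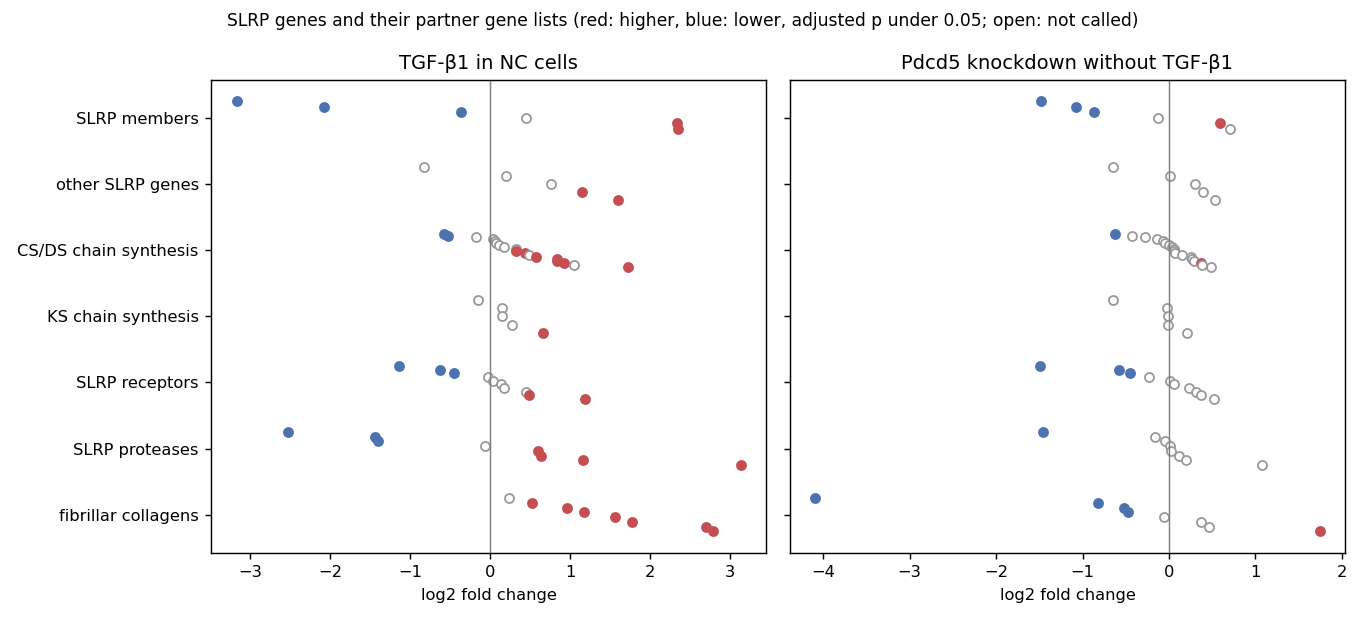
Log2 fold changes (horizontal axes, different scales) of the tested genes of 7 lists, 1 point per gene, after TGF-β1 in NC cells (left) and after Pdcd5 knockdown without TGF-β1 (right). Filled red points were called higher and filled blue points lower, and open points did not pass. CS/DS and KS stand for chondroitin or dermatan sulfate and keratan sulfate. On the left 7 collagens lie to the right of 0 and are red, while the SLRP members are spread from −3.17 to 2.35.

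Over the 12 libraries, the genes most like each member were named by Pearson's r of log2 CPM among 11772 genes with a mean of at least 1 CPM. These libraries share the 4 groups, so r follows the differences between groups as well as those within them. For Dcn they were Gda (r = 0.996), Foxa2 (0.983) and Clec1a (0.981). For Fmod they were Sulf1 (0.981), a sulfatase of heparan sulfate, Fbln5 (0.976), an elastic fibre protein, and Nexn (0.961). The genes given for Bgn are Adamts2 (0.979), a procollagen peptidase, and Arid3a (0.976). Ogn was followed by Ddit4l (0.971), Flrt3 (0.967) and Ltbp4 (0.961), which binds latent TGF-β. Prelp was followed by Bmp4 (0.973), a ligand of the TGF-β family, Gpc6 (0.968), a glypican, and Rasgrp3 (0.954). Aspn had the lowest values, with Tor3a and Hyal1 (0.943 each) and Zfp703 (0.941). None of the named genes is another of the 7 members.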

How the data were processed

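RNA of 12 C22 libraries was read by QuantSeq 3′ mRNA-seq, single-end. The authors aligned reads with Bowtie2 to mm10 (build from the submitters' processing notes) and used Bedtools to count alignments on each gene, those with several positions included. They deposited whole-number counts per gene symbol, without the quantile normalization their methods name. The annotation and the use of strand are not given in the sources used here. Groups came from the labels.

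From these counts of 23282 gene rows, of which 44 repeat a symbol, edgeR 4.0.16 in R 4.3.3 kept 12425 genes (filterByExpr), scaled libraries by TMM and fitted 4 group means with its quasi-likelihood test. Standard errors are the log2 fold change divided by the square root of F. Alternatives used limma-trend after quantile normalization (limma 3.58.1), upper-quartile factors, DESeq2 1.42.0, other filters (none, or at least 10 counts in every library), the 6 libraries compared, a block for the replicate number, and each library left out. Named genes are all members, their cluster neighbours, up to 3 called genes per list and comparison with the largest changes, and the 3 genes most like each member, of which 1 is not reported here. Genes named beside this rule (Cenpp, Gm15851, Col2a1 and the cell markers) were chosen after their values were seen or as checks. The members and lists were chosen with earlier results of these data known. Reads carry no molecular identifiers, so the level of 3 counts covers counting error only.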

Additional observations from a re-analysis of the deposited data

How the results depend on the processing

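Over all 548 values recomputed under the alternatives, 505 kept their direction and their side of the threshold or, as counts of calls, stayed near the count reported. With at least 10 counts in every library, Bgn and Prelp were not tested, and 3 members were called after TGF-β1 in NC cells and 3 in siPdcd5 cells. Prelp after knockdown without TGF-β1 was not called with quantile normalization and limma-trend (adjusted p = 0.11). With libraries left out, the uncalled log2 fold change of Bgn after knockdown without TGF-β1 ran from −0.51 to 0.17, and the difference of the TGF-β1 responses of Ogn ran from −0.088 to 0.037, so both turned direction; the cause was not tested.

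Across all genes, knockdown with TGF-β1 gave 192 calls in edgeR, 44 with the 6 libraries alone, 458 in DESeq2 and 73 to 322 with a library left out (322 without NC + TGF-β1 replicate 2), and the split of 41 higher and 151 lower became 51 and 110 with quantile normalization and limma-trend. Knockdown without TGF-β1 gave 427 calls, 714 in DESeq2 and 167 to 324 with a library left out. The replicate block gave 107 calls for knockdown with TGF-β1 and changed no member's call. Deviations of same-numbered libraries correlated at 0.0074 to 0.17 for TGF-β1 in NC cells and −0.32 to −0.036 for knockdown with TGF-β1, so the numbers were not taken as pairs. Depth limits Bgn and Prelp, whose lowest groups hold 29 and 11 counts in all, and Lum, with 1.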
